A study of Mus musculus with 12 samples.

Results

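The DMSO consensus list of β-catenin ChIP-seq from mouse forelimb buds held 1723 summits that lay both near a transcriptional start site (TSS), less than 1 kb from an annotated one, and inside an H3K27ac peak of the same treatment. These promoter summits were 10.6% of the 16189 β-catenin summits on chromosomes 1 to 19 and X. They were chosen by the β-catenin and H3K27ac calls of the DMSO libraries, so that the presence of both marks in DMSO is the rule and not a result. The remaining summits comprised 911 near a TSS without H3K27ac, 1861 distal ones inside H3K27ac peaks and 11694 distal ones outside them. The forelimb buds came from wild-type Swiss Albino embryos at E10.5, and no group carried a genetic alteration. They were collected 6 h after the pregnant female had received either DMSO in PBS or C59, an inhibitor of porcupine. By the paper's methods, the C59 solution also held methylcellulose and a detergent, so that drug and vehicle differ together. Each antibody and treatment had 2 biological replicates, each from pooled forelimb buds, so that the values are averages over all cell types of the bud and over several embryos, and fewer bound cells and less binding per cell cannot be told apart.

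β-Catenin is the transcriptional effector of canonical WNT signaling. WNT ligands need the acyltransferase porcupine for their secretion, and when they engage Frizzled and LRP receptors, the complex of AXIN, APC and kinases no longer degrades β-catenin, which then enters the nucleus and is brought to DNA by TCF/LEF transcription factors. H3K27ac is an acetylation of histone H3 that marks active promoters and enhancers. In limb buds, WNT signals from the ectoderm keep the mesenchymal progenitors proliferating and act in patterning, and Axin2 is the best known feedback gene of the pathway.

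The TCF/LEF core was searched as ATCAAAG or TTCAAAG on both strands of the 200 bp around each summit. The sequences below are 60 bp stretches of the mouse genome GRCm38 (mm10), outside UTR exons, at or near 8 of the summits named in the text. The first 6 are centred on the core nearest to the summit. At Dync1i1 and 5930412G12Rik this core lies 60 and 61 bp from the summit, so that the summit is outside the stretch. The first 6 are shown because they carry a core, which stands in capitals, and the last 2 because they are among the summits of highest fold enrichment, have no core and remained called after C59. The Axin2 stretch holds both forms of the core, and the letters of the last 2 are the bases around the summit.
Axin2, chr11:108921226-108921285, minus strand: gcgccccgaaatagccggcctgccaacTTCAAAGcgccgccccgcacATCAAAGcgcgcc
Tcf7, chr11:52283342-52283401, plus strand: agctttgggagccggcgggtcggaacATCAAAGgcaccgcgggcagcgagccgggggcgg
5930412G12Rik (Fzd10), chr5:128600425-128600484, minus strand: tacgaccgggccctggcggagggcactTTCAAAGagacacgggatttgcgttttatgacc
Sox6, chr7:115597340-115597399, minus strand: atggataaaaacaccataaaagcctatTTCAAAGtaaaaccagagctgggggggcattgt
Dync1i1, chr6:6006039-6006098, plus strand: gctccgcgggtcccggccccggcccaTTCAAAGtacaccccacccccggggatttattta
1190007I07Rik, chr10:82623366-82623425, minus strand: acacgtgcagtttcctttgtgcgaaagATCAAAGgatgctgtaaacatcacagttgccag
Gm23935, chr16:11144092-11144151, plus strand: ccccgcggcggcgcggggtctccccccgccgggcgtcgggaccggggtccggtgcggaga
Gm10800, chr2:98667116-98667175, plus strand: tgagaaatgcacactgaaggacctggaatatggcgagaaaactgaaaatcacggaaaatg

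The fold enrichment given by macs2 is the coverage at the summit over the coverage expected from the surroundings of the same library, each with 1 added. Because the fold and its p-value together fix both coverages, the number of fragments over each summit could be recovered. The genome-wide background of the β-catenin libraries was 1.57 and 1.81 fragments in DMSO and 1.83 and 1.82 after C59, so their depths were alike. The thresholds differed. At background, 8 fragments were enough for a call in DMSO but 11 were needed after C59, and the lowest −log10 p listed after C59 was 5.69 and 5.72, against 3.89 and 3.79 in DMSO. The H3K27ac libraries had backgrounds from 2.69 to 3.17 fragments and needed 10 or 11. As a check of the tissue, all 7 genes listed for forelimb and limb mesenchyme (Tbx5, Prrx1, Prrx2, Twist1, Hand2, Msx1 and Lmx1b) had an H3K27ac DMSO peak under 1 kb from a start, against 1 of 3 hindlimb, 1 of 7 ectoderm, 2 of 5 muscle precursor, 0 of 5 endothelium, 2 of 7 blood and 0 of 5 neural genes. After C59, a peak was also listed at Isl1 of the hindlimb genes and at Pecam1 and Cdh5 of the endothelium genes (2 of 5). Spi1 of the blood genes gained one as well (3 of 7). The other counts were equal, but the ectoderm gene with a peak was Epcam in DMSO and Cdh1 after C59. By the stricter rule used for the gene lists, a start inside an H3K27ac DMSO peak, 2 of 7 limb mesenchyme genes (Prrx2 and Lmx1b) qualified. So did 1 of 3 hindlimb, 1 of 5 muscle precursor and 1 of 7 blood genes, and 0 of the ectoderm, endothelium and neural genes. The part of other cell types in the H3K27ac differences given further on was not tested. Twist1 was the only one of these 39 genes with a promoter summit.

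β-Catenin enrichment at these promoters was low. The median fold enrichment was 5.11, with 90% of the values between 3.54 and 11.1 and a full range from 1.66 to 25.5. A fold of 10 or more was reached by 124 summits, a share of 7.2%, and 47.5% lay under 5. The other classes had medians of 6.22 (TSS without H3K27ac), 6.76 (distal with H3K27ac) and 7.07 (distal without it), and 15.9%, 20.6% and 22.7% of their summits reached a fold of 10. In the DMSO replicates, the median fold at the promoter summits was 4.79 and 4.7, from a median of 14 and 15 fragments, so that a typical value rests on few fragments. The replicates differed by 0.0143 in the median and by an SD of 0.338 on the log2 scale, and 1587 of the summits (92.1%) were within 1.5-fold of each other. Across the 1723 summits, Pearson's r of the log2 folds was 0.782, as a description of sites that share 2 libraries.

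The 10 highest folds belonged to starts of different kinds. Amotl2, which encodes a scaffold protein of the angiomotin family, had a fold of 22.4 and 21.8 in the DMSO replicates, from 145 and 170 fragments. Arl2, a small GTPase, had 17.9 and 22.5, and Dync1i1, an intermediate chain of dynein, had 18.6 and 21.4. The replicates of each of these were close to each other and far above the median promoter summit. Zfp142 (18.1 and 18.7), Svopl (16.9 and 18.2), Tmem151a (17 and 20) and 1190007I07Rik (19.1 and 15.9) completed the protein-coding genes together with Gm10800 (25.3 and 25.7). The lincRNA A530021J07Rik had 21.8 and 19.5, and the annotated miRNA Gm23935 had 24.2 and 22.9. At Gm10800, 100% of the window was masked as repeat. The summits at Gm10800 and Gm23935 remained called after C59 with folds near those in DMSO, as described further on. The next summit, at Znrf3, is described with the WNT genes.

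Both limits of the selection cut through a continuum. The 2 promoter summits at 990 bp or more from their start had folds of 4.06 and 9.93, and the 2 summits inside H3K27ac that missed the limit of 1000 bp by at most 10 bp had 4.88 and 10.9. The 34 promoter summits at most 10 bp inside the edge of an H3K27ac peak had folds from 3.21 to 15.4 with a median of 5.78, and the 29 at most 10 bp outside an edge had folds from 3.45 to 12.5 with a median of 6.1.

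Because the rule kept only summits under 1 kb from a start, their distances are a description. Within this limit, most lay close to the start. The median distance to the nearest TSS was 124 bp, against 278 bp for TSS summits without H3K27ac, which were held to the same limit. Of the promoter summits, 754 (43.8%) lay within 100 bp, 1211 (70.3%) within 250 bp and 214 (12.4%) at 500 bp or more. They fell on both sides alike, with 855 upstream (49.6%) and 862 downstream. The position was in a UTR in 29.0%, in an exon outside UTRs in 10.2%, in an intron in 27.3%, in a non-coding gene in 9.4% and intergenic in 24.1%. A protein-coding transcript had the nearest start for 1478 summits (85.8%), a lincRNA for 99 (5.75%) and an antisense RNA for 46 (2.67%). Starts on both strands lay within 1 kb of 397 summits (23.0%, 95% Wilson interval 21.1 to 25.1%), and of 25.1% (24.2 to 26%) of the starts at H3K27ac-marked promoters without a β-catenin summit. Wilson intervals cover counting error only. In all, the summits named 1471 nearest genes, of which 1263 had a single summit, 177 had 2 and 31 had 3 or more, and 14 summits were on chromosome X.

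**Figure D1:**
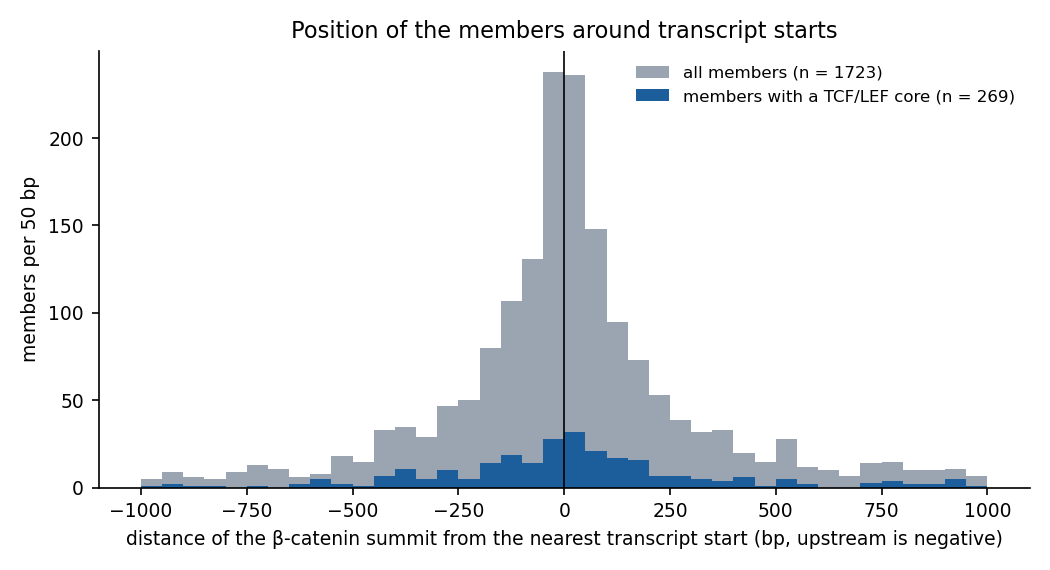
Number of promoter summits per 50 bp by distance of the β-catenin summit from the nearest annotated transcript start (x axis in bp, upstream negative). Grey bars stand for all 1723 summits and blue bars for the 269 with a TCF/LEF core, and both are highest next to the start, on both sides of it.

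The H3K27ac region around a promoter summit was 1160 bp wide in the median, against 992 bp for distal summits, and the nearest H3K27ac summit lay 138 bp away in the median (161 bp for distal summits). Of the 1212 promoter summits in regions with 2 or more H3K27ac summits, 863 (71.2%, 68.6 to 73.7%) lay between 2 of them. The share was 70.9% (68.2 to 73.5%) for distal summits, so the intervals overlapped.

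A TCF/LEF core was found in the windows of 269 promoter summits, a share of 15.6% (14.0 to 17.4%). The windows 2 kb to the left and right had one in 7.08% (5.96 to 8.39%) and 9.17% (7.9 to 10.6%), and windows centred on the nearest starts of the same summits in 7.31% (6.18 to 8.64%). With a median distance of 124 bp, many of these start windows overlap the summit windows and can hold the same core. At 8383 starts of protein-coding genes that were marked by H3K27ac and had no β-catenin summit, the share was 2.06% (1.78 to 2.39%), and at 21755 starts of protein-coding genes, 1 a gene, 5.02% (4.74 to 5.32%). The share at promoter summits was thus above each of these intervals, and below the 29.3% (26.4 to 32.3%) of TSS summits without H3K27ac, the 21.6% (19.8 to 23.5%) of distal summits with H3K27ac and the 31.5% (30.7 to 32.4%) of distal summits without it. ATCAAAG alone was in 8.07% of the promoter windows and 0.883% of the marked starts without β-catenin, and TTCAAAG in 8.01% and 1.22%. Base composition differed between these windows as well. The median GC content was 64.5% at promoter summits, 67.0% at the marked starts without β-catenin, 50% in both TSS windows without H3K27ac and distal windows with it, and 43.5% in the remaining distal ones. The part of base composition in the share of cores was not tested.

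Where a core was present, it lay near the summit. Of the 284 cores in promoter windows, 226 (79.6%) were centred within 50 bp of the summit, at a median of 25 bp, and 14 summits had 2 or more. Summits with a core had a median fold of 6.67, against 4.92 for those without, a difference seen in replicate 1 (5.96 and 4.67) and in replicate 2 (6.12 and 4.58). They lay 154 bp from a start in the median, against 116 bp, and their windows had a GC content of 58.5%, against 66.0%. The share with a core was 6.69% (17 of 254) among the summits with a fold under 4, 16.9% (14.0 to 20.3%) among the 549 at 5 to 7 and 43.7% (33.7 to 54.1%) among the 87 at 10 to 15. It was 40.5% (26.3 to 56.5%) among the 37 at 15 and above. Over the same range, the median GC content went from 66.5% to 54.5%, and the share of summits with a protein-coding nearest start from 87.8% (83.2 to 91.3%) to 62.2% (46.1 to 75.9%). Among the 10 highest folds, Amotl2, Arl2, Dync1i1, Zfp142 and 1190007I07Rik had a core.

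**Figure D2:**
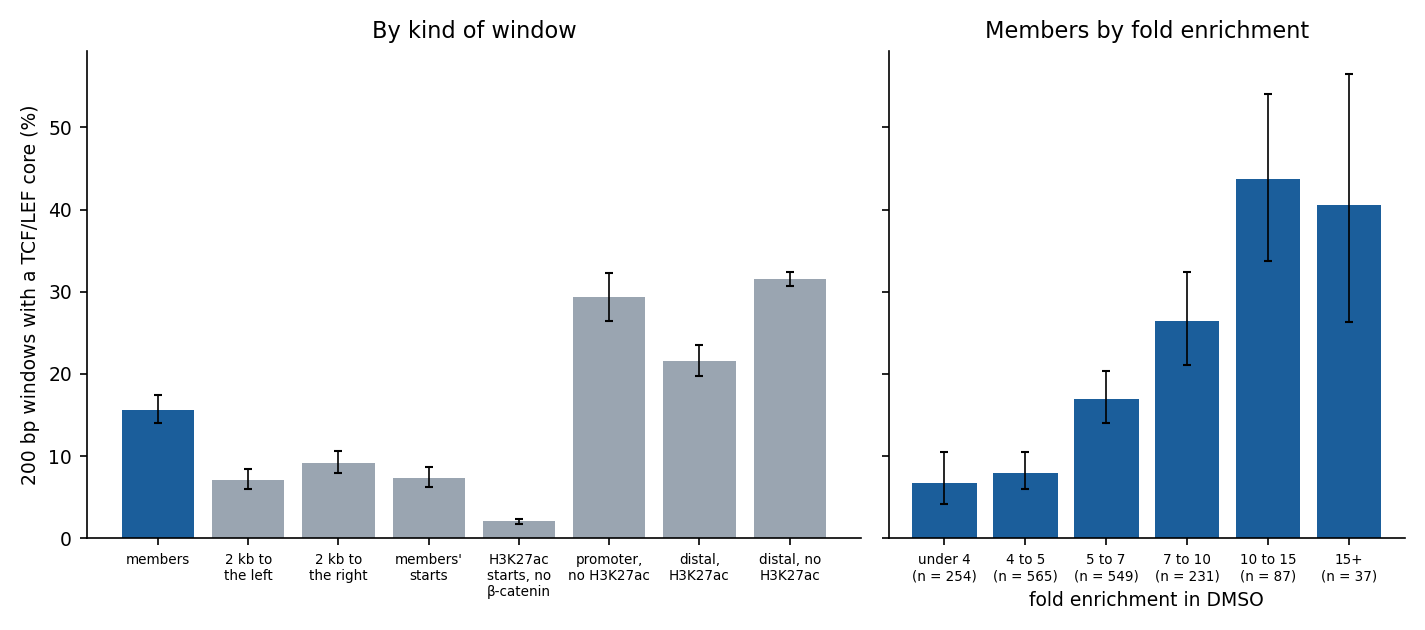
Share of 200 bp windows with a TCF/LEF core (y axis in percent, bars with 95% Wilson intervals), by kind of window on the left and by DMSO fold enrichment of the promoter summits on the right. The bar of the promoter summits (15.6%) is above those of the neighbouring windows and of starts without β-catenin and below those of the other summit classes, and the bars on the right go from 6.69% under a fold of 4 to 43.7% at 10 to 15.

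Motifs of general promoter factors were not more frequent at these summits than at marked starts without β-catenin. GGGCGG, bound by SP and KLF factors, was in 49.5% (47.1 to 51.9%) of the promoter windows and 58.6% (57.5 to 59.6%) of those starts, the ETS core CGGAAG in 21.4% (19.5 to 23.4%) and 25.3% (24.4 to 26.3%), the NFY box CCAAT in 15.4% (13.8 to 17.2%) and 21.2% (20.3 to 22.1%), and the CRE core TGACGT in 4.59% (3.69 to 5.68%) and 8.28% (7.71 to 8.89%). For each of these, the interval at the promoter summits was below that at the starts. These windows are centred on summits and not on starts, however. In windows on the nearest starts of the same summits, GGGCGG was in 57.3% (55.0 to 59.7%) and CGGAAG in 23.4% (21.5 to 25.5%), which overlaps the marked starts without β-catenin, whereas CCAAT (18.3%, 16.6 to 20.2%) and TGACGT (6.44%, 5.38 to 7.7%) remained below. GCATGC (5.22% and 6.07%) and the E-box CACGTG (6.79% and 6.43%) had overlapping intervals. The E-box CAGCTG was in 14.3% (12.8 to 16.1%) against 10.7% (10 to 11.4%), and the homeobox core TAATTA in 2.26% (1.66 to 3.08%) against 0.608% (0.463 to 0.799%). AACAAAG, which ends like the core and is related to SOX sites, was in 7.78% (6.6 to 9.14%) against 1.93% (1.66 to 2.25%). On the nearest starts of the summits, the interval was above that of the marked starts without β-catenin for AACAAAG (4.47%, 3.59 to 5.55%) but overlapped it for CAGCTG (12.5%, 11.1 to 14.2%) and TAATTA (0.929%, 0.572 to 1.5%). Many of these start windows overlap the summit windows, so the 2 sets of shares are not independent. All motifs were searched on both strands, and no position matches both AACAAAG and the core.

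Genes with a promoter summit were then read from lists of pathway genes. Of 21728 protein-coding genes, 1484 (6.83%) had one under 1 kb from a start, and of the 10178 whose start lay in an H3K27ac peak, 1404 (13.8%). Because the lists were drawn up with results of these data known, the counts are descriptions. Among WNT feedback and target genes, 6 of 20 had a promoter summit (30%, 14.5 to 51.9%) and 6 of the 12 with a start in H3K27ac (50%, 25.4 to 74.6%), with a median fold of 10.6, against 5.18 over all protein-coding genes. Znrf3, a ubiquitin ligase that removes Frizzled receptors from the membrane, had 15.7 and 20.4 in the DMSO replicates, from 69 and 101 fragments, 4 bp from its start and without a core. Tnfrsf19, a receptor of the TNF receptor family, had 13.6 and 12.5 at a summit with a core and a second summit nearby. Axin2, the scaffold of the destruction complex, had 3 summits, each with a core, the highest with 10 and 12.3. In the consensus list, all 3 genes were among the promoter summits with a fold of 10 or more, at 19.5, 13.6 and 11.6. Tcf7, which encodes the TCF/LEF family member TCF1, had 9.99 and 9.26, with a core. Notum, a secreted enzyme that inactivates WNT ligands, had 6.16 and 6.67, and Dkk1, a secreted antagonist that binds LRP receptors, had 5.27 and 4.87, with a core.

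Among ligands, receptors and secretion genes, 5 of 43 had a promoter summit (11.6%, 5.07 to 24.5%; 5 of the 16 marked genes, 31.2%), and 4 of them were receptors. The Frizzled receptor Fzd10 shared its summit with the lincRNA 5930412G12Rik, at 9.09 and 8.32 and with a core. Fzd2 had 4.4 and 5.88, the co-receptor Lrp6 had 3.72 and 4.7, Fzd7 had 4.03 and 3.96 and the ligand Wnt5a had 3.26 and 2.71. Of these, Fzd10 alone was above the median promoter summit in both replicates. Among the genes of β-catenin transduction and its nuclear partners, 7 of 30 had one (23.3%, 11.8 to 40.9%), or 7 of the 27 marked genes (25.9%). Besides Tcf7, these were Pygo1 (7.24 and 6.86, with a core), Bcl9 (5.93 and 5.27) and Bcl9l (5.59 and 4.61), which link β-catenin to the transcription machinery, the chromatin remodeller Smarca4 (5.13 and 5.4), the destruction complex scaffold Apc (3.26 and 4.62) and the corepressor Tle1 (2.87 and 2.42, with a core). Of the cadherins and catenins that join β-catenin to the cell membrane, Cdh2 (8.35 and 6.37) and Cdh11 (3.5 and 3.69) had a promoter summit. These were 2 of 8 genes (25%, 7.15 to 59.1%). Of the 5 marked genes, 1 had one (20%, 3.62 to 62.4%), an interval that holds the 13.8% of all marked genes.

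In other pathways of the limb bud, the folds were mostly near the median. In the BMP list, 4 of 23 genes had a promoter summit (17.4%), or 4 of the 14 marked genes (28.6%, 11.7 to 54.6%). They were the inhibitory Smad7 (5.07 and 3.1), the ligand Bmp7 (4.6 and 3.91, with a core), Smad4 (3.99 and 4.61) and the antagonist Chrd (3.4 and 3.6). In the FGF list, 4 of 20 genes had one (20%), but only 2 of the 12 marked genes (16.7%, 4.7 to 44.8%). The phosphatase Dusp4 was at 10.3 and 9.33 and the response genes Spry2, Etv4 and Spry4 between 3.17 and 4.32 in each replicate. Of the hedgehog genes, the receptor Ptch1 (7.52 and 3.84) and the transcription factor Gli1 (3.94 and 2.91) had one. The lowest shares were those of the limb patterning transcription factors, 2 of 45 (4.44%, 1.23 to 14.8%; 1 of the 22 marked genes, 4.55%), with Twist1 at 4.35 and 3.53 and Hoxd8 at 3.55 and 3.81, and of the proteasome subunits, 1 of 31 (3.23%, 0.572 to 16.2%; 1 of the 28 marked genes, 3.57%), with Psmd3 at 4.16 and 3.56. Chondrogenesis genes had a promoter summit in 4 of 14 cases (28.6%, 11.7 to 54.6%). Of the 7 marked ones these were 57.1% (25 to 84.2%), above the share of the marked WNT feedback genes, with intervals that overlap. Of the 4 genes, 2 were high. Col9a1, a cartilage collagen, had 12.5 and 15.1 without a core, and Sox6, a transcription factor of cartilage differentiation, had 9.73 and 11.4 with a core, whereas Col2a1 (4.41 and 4.32) and Runx2 (4.12 and 3.02) were near or below the median. In the cell cycle list, 4 of 30 genes had one (13.3%), or 4 of the 28 marked genes (14.3%, 5.7 to 31.5%), near the 13.8% of all marked genes. Mycn was highest at 8.71 and 11 and with a core, and Cdk1, Rbl1 and Cdk2 lay between 3.48 and 4.82. Notch3 and Notch4, 2 of 15 Notch genes (13.3%) and 2 of the 8 marked ones (25%, 7.15 to 59.1%), lay between 3.6 and 4.19. The intervals of the marked BMP, FGF, cell cycle and Notch genes all hold the 13.8%. Of the ribosomal protein genes, 7 of 80 had a promoter summit (8.75%, 4.3 to 17.0%), from Rps19 at 5.32 and 6.67 to Rps20 at 3.9 and 3.79, and 0 of these 7 had a core. This share was above the 6.83% of all protein-coding genes, but among marked genes it was 9.21% (4.53 to 17.8%, 7 of 76), below the 13.8% of all marked ones, and both values lie in the intervals.

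**Figure D3:**
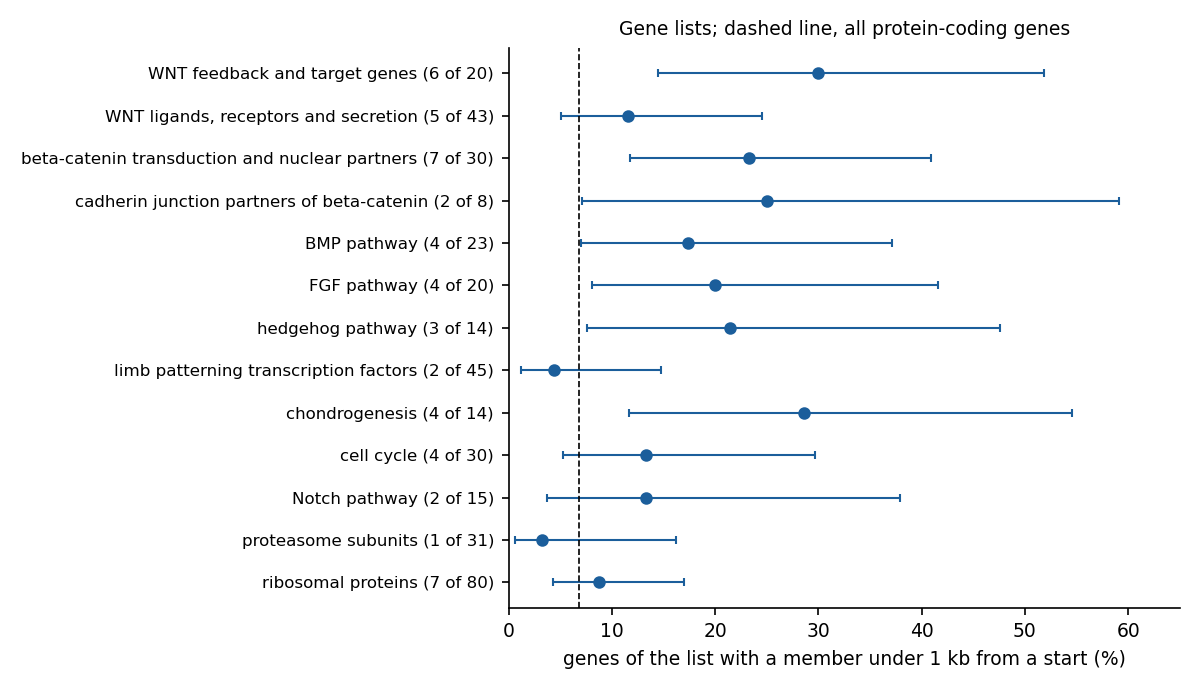
Share of the genes of each list with a promoter summit under 1 kb from a start (x axis in percent, points with 95% Wilson intervals), with the share of all protein-coding genes, 6.83%, as a dashed line. On this base, WNT feedback and target genes are highest at 30% (6 of 20), just above chondrogenesis at 28.6% (4 of 14), an order that turns among H3K27ac-marked genes (50% and 57.1%), and the proteasome subunits (1 of 31) and limb patterning transcription factors (2 of 45) are lowest.

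After C59, β-catenin peaks were no longer called at nearly all of these promoters. Of all 16189 DMSO summits, 182 (1.12%) lay inside a C59 consensus peak. Of the promoter summits, 48 did (2.79%, 2.11 to 3.67%), with 50 in C59 replicate 1 and 47 in replicate 2. The share was 0.549% (0.235 to 1.28%) at TSS without H3K27ac and 2.31% (1.72 to 3.1%) at distal summits with H3K27ac. Since a call needed a lower p after C59, the count was repeated for the 1230 promoter summits whose −log10 p reached 5.72 in both DMSO replicates, and 48 of these (3.9%, 2.96 to 5.14%) were called. Of the 124 with a DMSO fold of 10 or more, 5 were called (4.03%, 1.73 to 9.09%), an interval that holds the share of all promoter summits. Amotl2, Arl2, Dync1i1, Znrf3 and Tnfrsf19 had no C59 call in the consensus list, and a summit that is not listed can hold fewer fragments than the call needed.

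The 48 summits lay in few places. When summits at most 10 kb apart were joined, they were 9 of 1448 loci (0.622%, 0.327 to 1.18%). Of the 48, 40 were nearest to a start that was not protein-coding or whose symbol begins with Gm. The share of this trait over all promoter summits was not counted, and 85.8% of them had a protein-coding nearest start. In 27 of the 48 (56.2%, 42.3 to 69.3%) at least 50% of the window was masked as repeat, against 9 of 1675 (0.537%, 0.283 to 1.02%) of those not called. A core was present in 5. The largest groups were 12 summits at Gm10717, Gm26870 and their neighbours and 8 at Gm10722 and Gm11168, both on chromosome 9, 10 at Gm26917 and its neighbours on chromosome 17 and 5 at Gm10800 and Gm10801 on chromosome 2. At Gm10800, the highest summit was covered by 7243 and 7408 fragments in DMSO and by 9146 and 8749 after C59, and the fold was 25.3 and 25.7 before and 24.5 and 25.4 after. The expected coverage there was 159 to 182 times the background of the library, and at Gm26917 94.6 to 104 times. The 2 groups on chromosome 9 had lower values, 1.21 to 5.23 times at Gm10717 and its neighbours and 5.39 to 6.89 times at Gm10722. At Gm26870, the summit at 3038021 was covered by 17 and 25 fragments in DMSO and 28 and 30 after C59. The part of repeated sequence in their calls was not tested.

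A few of the loci had less masked sequence, in the median, than the groups at Gm10800 and on chromosome 9. The part of repeated sequence in their calls was not tested either, and masking alone does not settle it. At Gm23935, where 0% of the window was masked and the expected coverage was 2.13 to 2.31 times the background, the fold was 24.2 and 22.9 in DMSO and 21 and 21.5 after C59, with 104 and 118 fragments before and 82 and 101 after. The 2 summits at Tmem267 had folds of 5.73 and 7.11 in the DMSO consensus list and lay in C59 peaks with 4.34 and 6.98, and the 3 at 4931408C20Rik had 4.35 to 6.5 and lay in a C59 peak with 6.58. Of the 9 loci, Axin2 was the only one among the WNT genes of the lists. Its summit on chromosome 11 at 108921258, 78 bp upstream of the nearest start, went from a fold of 10 and 12.3 in DMSO to 4.14 and 3.83 after C59, both C59 replicates being below both DMSO replicates. The fragments over it numbered 150 and 214 in DMSO and 12 and 13 after C59, while the expected coverage went from 14.1 and 16.5 to 2.14 and 2.65. The difference was therefore larger in fragments than in fold enrichment, in which the fall of the expected coverage is divided out. That coverage comes from the same library, without input, and can itself hold β-catenin signal of the locus. The summit 79 bp downstream of a start had 9.68 and 9.08 in DMSO and 4.67 and 6.61 after C59. The highest C59 value thus stayed below the lowest DMSO value there too. Across all 3 Axin2 summits, the C59 consensus fold was 0.412 to 0.893 times that of DMSO. Between same-numbered replicates the ratio was 0.312 to 0.728. With 2 replicates a treatment, an exact permutation test of a single summit cannot give a two-sided p below 0.33, and none is given.

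**Figure D4:**
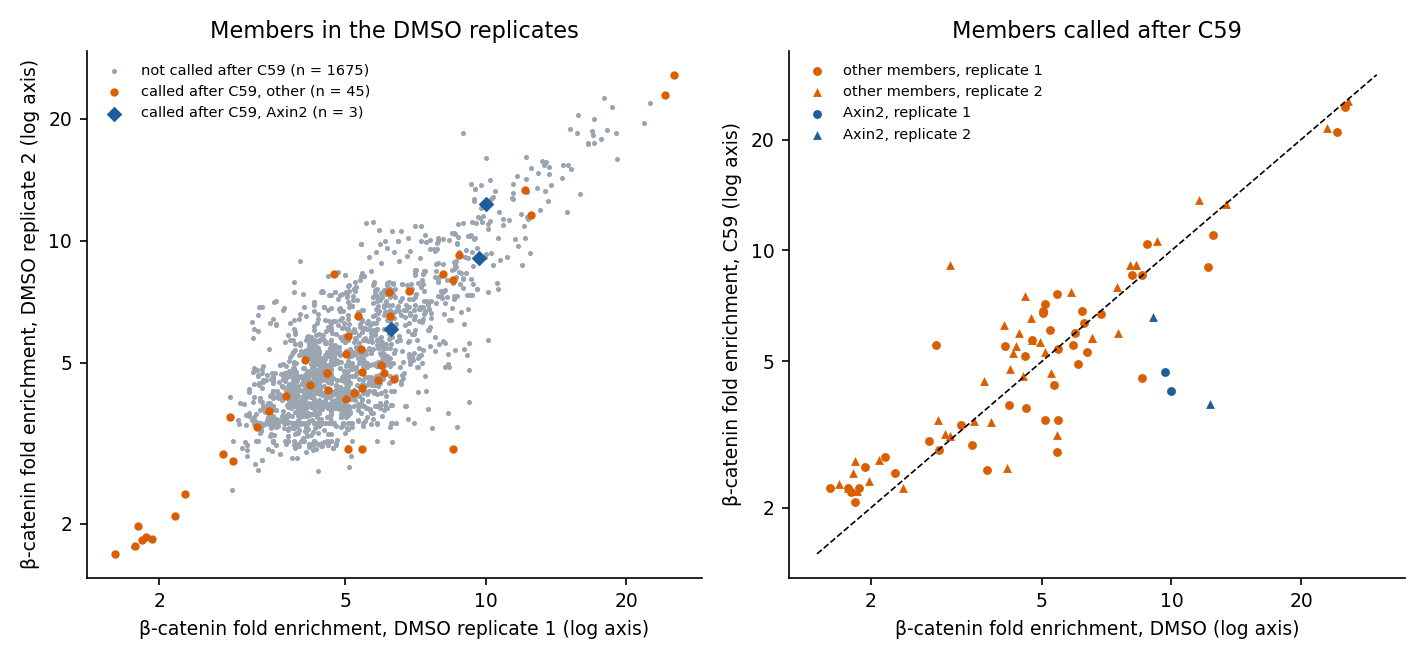
β-Catenin fold enrichment of the promoter summits (log axes). The left panel sets DMSO replicate 2 against replicate 1 for all 1723 summits, with the 48 that were called after C59 in colour, and the right panel sets C59 against DMSO for those 48, each point being 1 summit in the libraries of 1 replicate number where both lists hold it. The Axin2 points lie below the dashed line of equal values, and the other loci scatter around it.

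H3K27ac, in contrast, was called at most of these promoters in both treatments. Of all 3584 β-catenin summits inside H3K27ac DMSO peaks, 3125 (87.2%) lay inside an H3K27ac C59 consensus peak. Of the promoter summits, 1647 did (95.6%, 94.5 to 96.5%), and of the distal ones 79.4% (77.5 to 81.2%). In the lists of single libraries, 91.7% and 91.4% of the promoter summits were inside a peak of the DMSO replicates and 92.1% and 89.5% inside one of the C59 replicates, so the values of the treatments overlap. Of the 1488 H3K27ac regions that held a promoter summit and were called in DMSO, 1460 were also called after C59 (98.1%, 97.3 to 98.7%). The regions with a start and no β-catenin summit had 96.4% (96.0 to 96.8%), and those with a β-catenin summit and no promoter summit 87.6% (86.1 to 89.1%).

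The level of H3K27ac was compared by limma on the log2 fold enrichment of the highest summit of each region, with 2 libraries a treatment and the library medians made equal, before which C59 minus DMSO had a median of −0.0284 on the log2 scale. Of the 17212 regions with a summit in all 4 lists, 2 (0.0116%) passed an adjusted p of 0.05, and 0 of the 1461 regions with a promoter summit did. At an unadjusted p under 0.05 these numbered 1973 (11.5%) and 156 (10.7%) by limma, and with the replicate number as a block limma passed 133 (0.773%) and 9 at the adjusted p. The median log2 difference, C59 minus DMSO, was 0.052 over the regions with a promoter summit, 0.032 over all regions and 0.023 over regions with a start and no β-catenin summit. The value was higher after C59 in 954 of the 1461 promoter regions and in 9806 of all 17212, and without equal medians in 824 and 8737.

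The 3 regions with the lowest p did not pass on fold enrichment, whereas all 3 passed with the replicate block and by limma on coverage, the fit described next. At Fam185a, on chromosome 5 from 21424966 to 21425646, the H3K27ac fold enrichment was 11.5 and 13.5 in DMSO and 5.51 and 6.29 after C59, with 46 and 61 fragments before and 22 and 24 after (log2 difference −1.06 ± 0.15 SE, limma adjusted p = 0.113). On coverage, the difference was −1.19 (limma adjusted p = 0.000332). At Axin2, on chromosome 11 from 108920358 to 108922415, it was 10.52 and 10.63 in DMSO and 16.7 and 15.5 after C59 (0.63 ± 0.09, limma adjusted p = 0.121). The values of the treatments do not overlap at either of these regions, both picked for a low p. The directions are opposite. The fragments at Axin2 were 375 and 416 in DMSO and 537 and 410 after C59, and the expected coverage was 34.7 and 38.2 before and 31.3 and 25.5 after, so that the C59 values overlap those of DMSO in fragments. The fold above is that of the highest H3K27ac summit, and with the mean over the summits of the region the difference at Axin2 was 0.10 (limma adjusted p = 0.873). At Snx15, which encodes a sorting nexin, the fold was 11.3 and 11.3 in DMSO and 16 and 14.9 after C59 (0.48 ± 0.09, limma adjusted p = 0.193). It was 0.47 on coverage (limma adjusted p = 0.049) and 0.77 with the mean over the summits (limma adjusted p = 0.563).

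Because the fold is relative to the surroundings, the comparison was repeated on the fragments themselves, an alternative added after the data were seen. By limma on coverage, 1415 of 17212 regions passed (8.22%), of which 1029 were higher after C59 (5.98%). Of the regions with a promoter summit, 172 of 1461 passed (11.8%), 133 of them higher and 39 lower after C59. The fit thus decides whether a promoter region is called, and how local background enters these calls was not tested. Among the WNT genes, Tnfrsf19 had 72 and 74 fragments in DMSO and 39 and 29 after C59 (log2 difference −1.10, limma adjusted p = 9.24e-05 on coverage), whereas its fold enrichment, 8.2 and 7.91 before and 6.46 and 5.82 after, did not pass (−0.37 ± 0.15, limma adjusted p = 0.408). Tcf7 had 47 and 49 fragments in DMSO and 38 and 19 after C59 (−0.82, limma adjusted p = 0.0158 on coverage, −0.62 and 0.318 on fold enrichment). On fold enrichment, its difference was −0.29 without C59 replicate 2 and −0.94 without C59 replicate 1. Both Tnfrsf19 and Tcf7 had fewer fragments in each C59 library than in either DMSO library. Axin2 was higher after C59 in this fit as well (0.27, limma adjusted p = 0.0233), although its libraries overlap before scaling.

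At the remaining genes of the lists, 0 regions passed by limma on fold enrichment. The lowest value was that of Chrd, with an H3K27ac fold of 12.4 and 10 in DMSO and 6.80 and 8.56 after C59 (−0.52 ± 0.17, limma adjusted p = 0.325), and the highest that of Ptch1, with 3.34 and 4.13 before and 5.10 and 4.83 after (0.45 ± 0.19, limma adjusted p = 0.419). Mycn had a log2 difference of 0.39, and Smad7, Fzd10 and Twist1 had 0.34 each. The libraries of the treatments did not overlap at any of these 6 genes. They were picked for the largest differences, so that this adds nothing to the fit, and the share over all regions was not counted. The other differences lay between −0.13 and 0.32. Znrf3, with the highest β-catenin fold among them, had an H3K27ac fold of 13.4 and 13.5 in DMSO and 12.9 and 13.2 after C59 (−0.01 ± 0.09, limma adjusted p = 0.976). The regions at Notum and Dkk1 lacked a summit in at least 1 of the 4 lists and were not tested. The median log2 difference of a list ranged from −0.19 (WNT feedback genes, 4 regions tested) to 0.28 (limb patterning transcription factors, 2 regions), beside 0.052 over the regions with a promoter summit. By limma on coverage, those that passed besides the WNT genes above were Hoxd8 (0.47, adjusted p = 0.000889), Smad7 (0.41, adjusted p = 0.000579), Spry2 (0.38, adjusted p = 0.0161) and Psmd3 (0.34, adjusted p = 0.0381), all higher after C59, and Rps20 (−0.37, adjusted p = 0.00988), which was lower. At Hoxd8, the fragments were 197 and 218 in DMSO and 309 and 261 after C59, which do not overlap, and at Rps20 they were 267 and 277 before and 230 and 187 after.

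**Figure D5:**
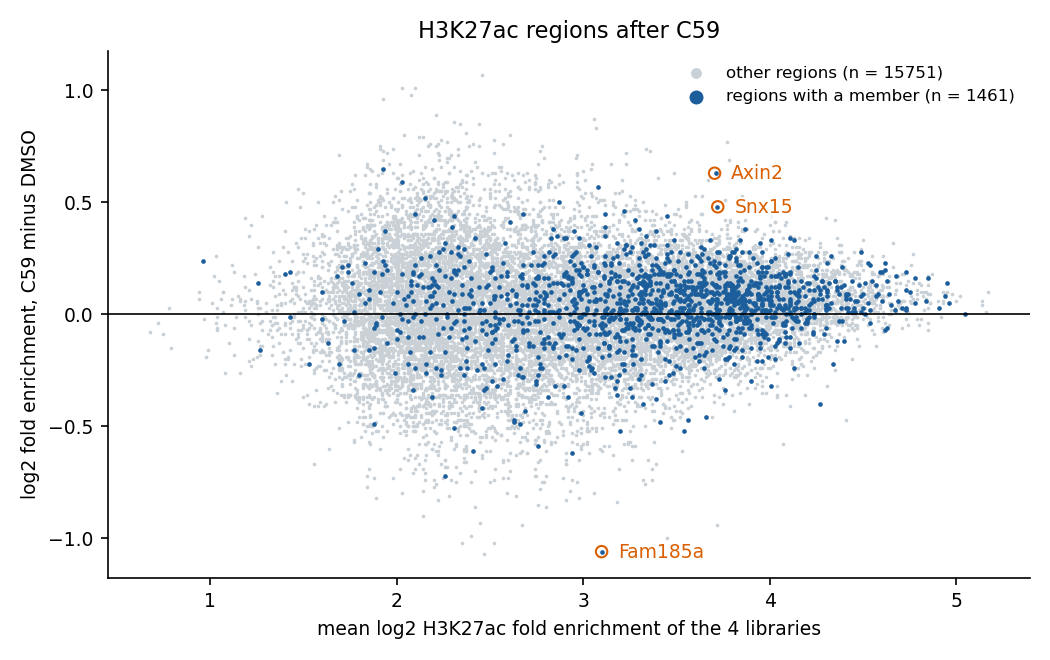
Log2 difference of H3K27ac fold enrichment, C59 minus DMSO (y axis), against the mean log2 fold enrichment of the 4 libraries (x axis), 1 point a region. Blue points are the 1461 tested regions with a promoter summit and grey points the 15751 others, and the circled regions (Axin2, Snx15 and Fam185a) are the blue ones with the lowest p, of which 0 passed on fold enrichment.

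Finally, 61 promoter summits lay in no H3K27ac peak of C59, neither in the consensus list nor in either replicate. Their H3K27ac was weak in DMSO already, with a median fold of 6.65 in the consensus list against 11 over all promoter summits, and 10 of the 61 were inside a peak of both DMSO replicate lists and 20 inside one of neither. For 40 of them, a C59 peak lay at most 200 bp away. A core was present in 15 of the 61, beside 15.6% of all promoter summits. For β-catenin, 0 were called after C59, beside 2.79% of all promoter summits, a share so low that 0 among 61 says little about them. The highest β-catenin folds among them were those of 1700020G03Rik (15.2 and 18.9 in the DMSO replicates), the lincRNA 4930511J24Rik (13.6 and 14.6), Tacc1 (11.7 and 14.5), which encodes a coiled-coil protein of the centrosome, the zinc finger gene Zfp354b (12.3 and 11.3) and the lincRNA AC103362.1 (11.7 and 9.7). Of the WNT genes, Notum belonged to this group, with 2 summits, both at an H3K27ac fold of 4.44 in the DMSO consensus list. The summit at 120660677 on chromosome 11 lay in an H3K27ac peak of DMSO replicate 2 alone, and the one at 120661225, which has a core, in peaks of both (5.69 and 4.63). The nearest C59 peak was 12014 and 11466 bp away.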

How the data were processed

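Forelimb buds were profiled by ChIP-seq for β-catenin and H3K27ac, and 8 replicate and 4 consensus peak lists were used. The 4 input samples were not analysed here. As the methods and processing notes state, the authors used cutadapt for trimming, Bowtie2 2.4.5 for mapping to mm10 and MACS2 2.2.7.1 for peaks, without input. A consensus list comes from both replicates together, after duplicate removal (Picard 2.27.4) and equalised depth, and keeps summits in peaks of both. The deposited values are the fold enrichment, a ratio to coverage expected in that library, and the −log10 of p and q as deposited p-value and q-value columns. The blacklist that the authors describe was not applied here.

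Starts were those of all GENCODE M21 transcripts on GRCm38 (130588 positions), not the custom annotation of the study. A summit counted as called when it lay inside a peak. Coverage was solved from the fold and p of each row. H3K27ac regions were made by joining overlapping peaks of the DMSO and C59 consensus lists, and each library gave its highest summit in a region. The regions were compared with limma 3.58.1 (R 4.3.3) on log2 fold enrichment without a pseudocount, with trended, robust variances and Benjamini-Hochberg adjustment. Same-numbered libraries did not deviate together (r = 0.0138 across regions) and were not paired. Shares carry 95% Wilson intervals. Named were the 10 highest folds, the 12 highest after C59, up to 3 genes a list, the 3 regions of lowest p, the 5 highest folds without H3K27ac after C59 and the 5 genes with most summits. The remaining list genes, Smarca2 and the summits called in 1 C59 replicate were added after their values were seen. Summits, lists and alternatives were chosen with earlier results of these data known. The values of 1 list gene are not reported here. Functions were tested on simulated data. Python 3.11.15 was used with matplotlib 3.10.9, pysam 0.24.0, scipy 1.17.1, pandas 2.3.3 and numpy 2.4.6.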

Additional observations from a re-analysis of the deposited data

How the results depend on the processing

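The number of promoter summits ranged from 1448 loci to 1909 (limit of 2500 bp) and stayed within 1.5 times of 1723 in all 6 alternatives. The share with a β-catenin call after C59 was 3.9% among summits past the C59 limit and, in alternatives added after the data were seen, 0.622% of loci, 1.24% (21 of 1687) with under 50% of the window masked and 0.948% (16 of 1687) with an expected coverage under 5 times the background. The H3K27ac share after C59 was 89.5% to 92.1% in single replicates and 98.4% with a peak at most 1 kb away. The core share was 11.9% in 100 bp, 20.2% in 400 bp, 8.07% for ATCAAAG alone, 42.7% at a fold of 10 or more and, added later, 19.1% with ATGAAAG, which was in 4.0% of promoter windows and 0.978% of marked starts without β-catenin. The limma count over all regions, 2, was 0 without equal medians, 0 for the mean of a region's summits, 0 to 2 when 1 library was left out (0 without DMSO replicate 1, DMSO replicate 2 or C59 replicate 2) and 1415 on coverage. With a replicate block, 133 regions passed (0.773%), 9 of them with a promoter summit, including Fam185a, Axin2 and Snx15 (adjusted p = 0.000313, 0.00318 and 0.0219 by limma with the block). The labels give no shared source for same-numbered libraries, so this is no paired result. Promoter regions numbered 172 on coverage and 0 in the other alternatives without a block. At Znrf3, the difference was −0.07 to 0.04 when 1 library was left out (0.01 without DMSO replicate 1 and 0.04 without C59 replicate 1), against −0.01. Of 66 alternative values at 6 single regions (Fam185a, Axin2, Snx15, Znrf3, Tcf7 and Tnfrsf19), 8 passed the threshold, with the block or on coverage, and 2 changed sign, those at Znrf3. About 10 fragments were needed for a call, so weaker binding was not detectable.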

Other observations

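Some genes held several promoter summits. Por, which encodes the reductase that passes electrons to cytochrome P450 enzymes, had 5, at 2 groups of starts on chromosome 5. The 3 at the upstream starts had consensus folds of 3.16 to 7.75 and lay in 1 peak of each DMSO replicate, with a fold of 5.39 and 9.79, and the 2 at the inner starts had 9.06 and 9.93. The summits with 3.16 and 9.93 had a core. None of the 5 was called after C59. Smarca2, an ATPase of the SWI/SNF remodelling complex, had 4. The other genes with at least 4 were Gm26917 with 7, Gm10722 with 6, Gm10717 with 5 and Gm21738 with 4, at the places that remained called after C59.

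A further 6 promoter summits lay in a β-catenin peak of 1 C59 replicate and not in the consensus list. Gm12830 (17.6 and 17.9 in the DMSO replicates) had a fold of 4.96 in C59 replicate 2, and B530045E10Rik (16.9 and 18.7) had 5.24 in replicate 1. C330018D20Rik (12.2 and 16.1, then 4.21), Grcc10 (10.9 and 10.9, then 5.51) and 4632428C04Rik (7.07 and 8.32, then 4.6) were listed in C59 replicate 1, and Hist4h4, a histone gene (5.76 and 7.92, then 4.97), in replicate 2. In each case, the 1 listed C59 value was below both DMSO values. These summits were taken because 1 C59 list lacked them, so that low C59 values go with the choice.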
